A study of Homo sapiens with 6 samples.

Results

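Neurofilament and other neuronal cytoskeleton genes were followed on Affymetrix arrays in IMR32 cells, a long-established neuroblastoma line. The 10 genes were NEFL, NEFM, NEFH, PRPH, INA, STMN2, MAP2, GAP43, TUBB3 and DCX. They were taken as every probe set whose only gene symbol in the platform annotation was one of these, which gave 20 of the 54675 probe sets on the array. A probe set is a group of short probes read as 1 value for a transcript. INA and PRPH had a single probe set each, and the other 8 genes had 2 or 3. One group of 3 arrays came from cells incubated with 118 µM teriflunomide for 24 h, and the other group of 3 from cells given 0.1% DMSO for the same time, both starting 12 h after seeding. Teriflunomide inhibits dihydroorotate dehydrogenase, an enzyme of mitochondria that makes pyrimidines de novo. The labels did not say whether the teriflunomide wells also held DMSO. They call the arrays biological replicates without saying whether these came from separate cultures, so the p-values reflect only array-to-array spread, which may be technical. Both groups come from 1 cell line.

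The cytoskeleton of an axon is built of microtubules and neurofilaments. Neurofilaments are heteropolymers of a light (NEFL), a medium (NEFM) and a heavy (NEFH) subunit, joined by alpha-internexin (INA) or peripherin (PRPH). They set the calibre of large axons, and the light subunit is widely measured in blood as a marker of axonal damage. Peripherin is a type III intermediate filament protein typical of peripheral neurons, including the sympathetic lineage that gives rise to neuroblastoma, while the other 4 subunits are type IV. Microtubules are polymers of tubulin, of which TUBB3 is the neuronal beta isotype, and are regulated by proteins such as MAP2, doublecortin (DCX) and stathmin-2 (STMN2). GAP43 is a membrane protein of growth cones.

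PRPH and INA were the 2 filament genes with a single probe set, and they moved in opposite directions. Their promoter windows are shown for that reason, as RefSeq gives them on GRCh38.p14, from 250 bases before to 50 after the transcription start, 5′ to 3′. The PRPH window is chr12:49294897-49295196 (plus strand) and the INA window is chr10:103276888-103277187 (plus strand). Capitals mark matches to the motifs searched.
PRPH: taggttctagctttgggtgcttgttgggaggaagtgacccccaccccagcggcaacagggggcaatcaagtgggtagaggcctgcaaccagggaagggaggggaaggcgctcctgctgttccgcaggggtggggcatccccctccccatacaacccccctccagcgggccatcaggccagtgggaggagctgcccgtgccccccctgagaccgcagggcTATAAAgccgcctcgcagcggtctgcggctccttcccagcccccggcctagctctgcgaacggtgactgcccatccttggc
INA: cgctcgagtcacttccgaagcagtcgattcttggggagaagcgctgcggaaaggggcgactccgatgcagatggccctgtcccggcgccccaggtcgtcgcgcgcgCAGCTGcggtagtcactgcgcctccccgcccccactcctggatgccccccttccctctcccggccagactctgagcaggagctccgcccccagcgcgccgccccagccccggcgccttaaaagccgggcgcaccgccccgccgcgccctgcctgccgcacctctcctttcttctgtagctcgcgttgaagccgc
The motifs searched on both strands were TATAAA (the TATA box), CAGCTG (an E-box), TGATGNAA (the core of the composite C/EBP and ATF element) and TGACGTCA (the full cyclic AMP response element). No motif match overlapped another in these windows. PRPH held TATAAA at position -31 from the start, and INA held CAGCTG at position -144. TATAAA was present in 11.5% of all 35116 promoter windows of this length and CAGCTG in 17.9%. Promoter windows were used for 6 of the 10 genes, 11 windows in all (MAP2, GAP43, INA, PRPH, TUBB3 and DCX). Of these 11, 2 held TATAAA (PRPH and 1 DCX window), 1 held CAGCTG and 0 held TGATGNAA or TGACGTCA, which 3.62% and 1.85% of all windows held. A match describes letters and is not evidence of binding.

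The deposited values are log2 intensities, so 1 unit is a doubling. Each array had the same lowest value, 2.18, and 33.9% to 34.3% of the probe sets of an array sat at it; array medians were 2.63 to 2.66. Across all probe sets that were not controls, arrays of 1 group correlated at a Pearson's r of 0.998 to 0.999 and arrays of different groups at 0.989 to 0.990, a description across probe sets, which are not replicates. Probe sets were tested when their value was no lower than the median of the array in 3 or more of the 6 arrays. Of the 10 genes, 8 passed, and of the 20 probe sets, 15 passed. STMN2 and DCX passed with none of their probe sets. Among all 11998 genes tested, 58.6% passed an adjusted p of 0.05 in limma, 29.7% higher and 28.9% lower with teriflunomide. Of the 8 tested member genes, 1 was called higher and 5 lower, and their median log2 fold change was -0.49, against 0.0015 over all genes tested. Arrays are brought to a common distribution by the authors' method, so a shift shared by all genes would not show. Fewer cells of a kind and less RNA per cell cannot be told apart in bulk RNA.

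The labelled line was checked against its markers, of which 9 of 10 on the array passed the filter. MYCN, which is amplified in IMR32, was 14.69 with teriflunomide and 15.11 with DMSO, and PHOX2A and GATA3, transcription factors of the sympathetic lineage, were above 11.9 in both groups. TH, of catecholamine synthesis, lay at or near the lowest value, at 2.19 with teriflunomide and 2.18 with DMSO, and DBH was dim, at 2.47 with teriflunomide and 3.41 with DMSO. Of the 9 tested line markers, 3 were called higher and 3 lower, against 29.7% and 28.9% of all genes. DDC and CHGA were lower, at -1.82 and -1.46. The summed linear intensity of the 10 was 46909 to 51012 on the teriflunomide arrays and 56905 to 58357 on the DMSO arrays. MYCN was the brightest of them. Of the 7 glial markers on the array, 2 passed the filter, and the highest group mean was 4.21, for ALDH1L1 with teriflunomide. Of 15 markers of fibroblast, muscle, blood, endothelial and epithelial cells, 7 passed and 5 were at the lowest value on all 6 arrays. The summed linear intensity of the 15 was 8831 to 8939 on the teriflunomide arrays and 5906 to 6387 on the DMSO arrays. It rested mainly on the fibroblast genes COL1A1 and LUM. COL1A1, a collagen chain, was 11.75 with teriflunomide and 10.81 with DMSO. Its other probe sets changed by 0.95, 0.22 and -0.09, of which only the first passed. LUM, a matrix proteoglycan, was 12.01 with teriflunomide and 11.40 with DMSO, and another LUM probe set changed by 0.02. Of the other fibroblast markers, PDGFRA was called lower, at 9.85 with teriflunomide and 10.12 with DMSO. DCN was at 2.18 on every array. The part of these markers in the changes of the filament genes was not tested.

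Another measure differed between the groups on every array. The 3′ minus 5′ signal of the ACTB control probe sets, which reflects the length of the labelled target, was 1.62 ± 0.07 with teriflunomide and 1.36 ± 0.03 with DMSO (log2, SD, n = 3 each, exact permutation p = 0.1, two-sided, the smallest that 3 against 3 allows). For GAPDH the same measure was 0.0627 ± 0.0207 with teriflunomide and 0.0495 ± 0.006 with DMSO (exact permutation p = 0.4). The place of the member probe sets along their transcripts was not analysed here, and the part of this measure in their values was not tested.

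**Figure D1:**
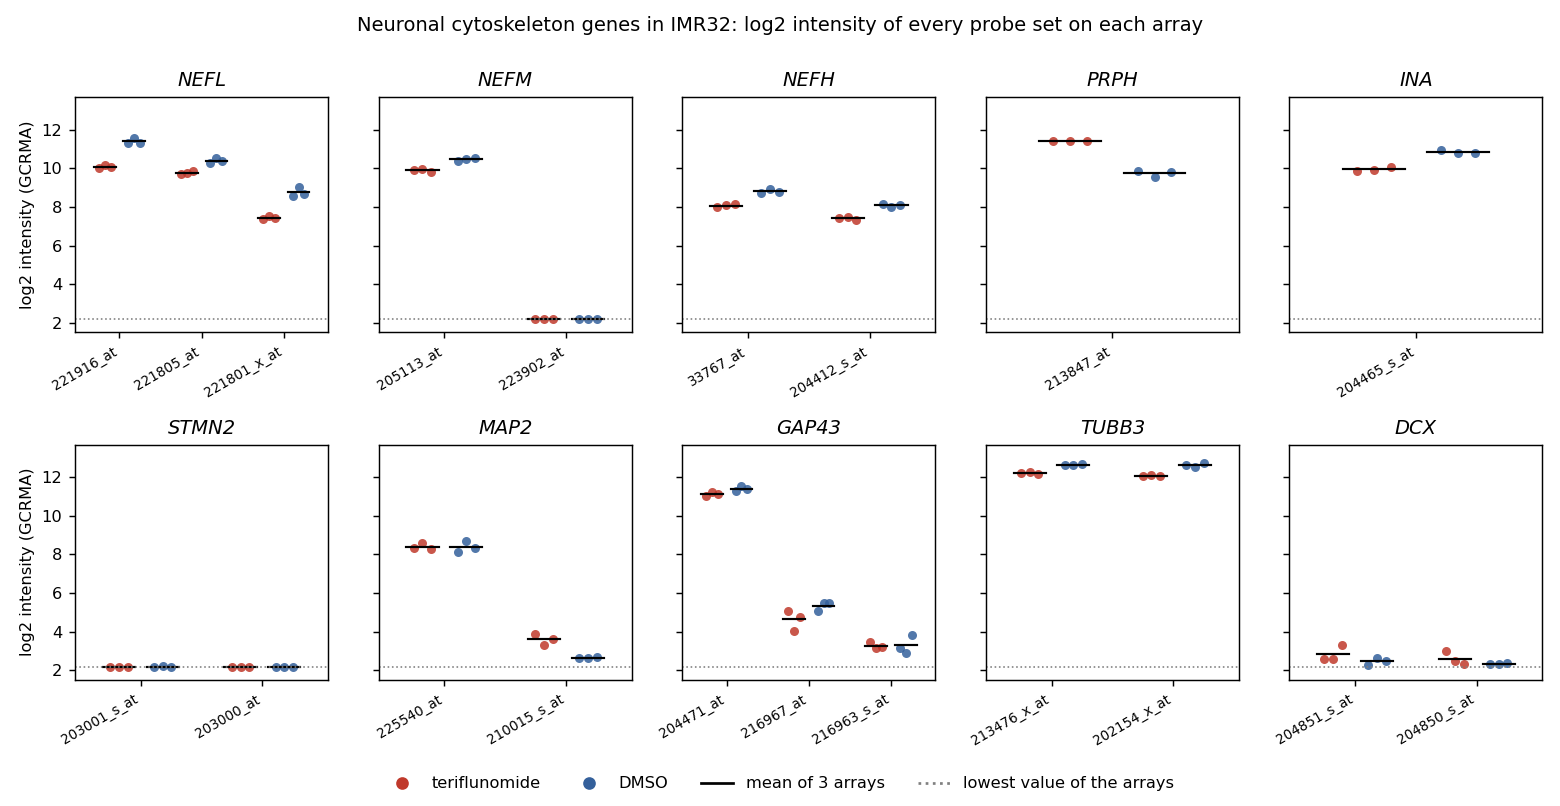
Log2 intensity (vertical axis) of all 20 probe sets of the 10 genes on each of the 6 arrays, teriflunomide left of DMSO within each probe set, with the mean of 3 arrays as a black line. All teriflunomide arrays lie below all DMSO arrays for the bright probe sets of NEFL, NEFM, NEFH, INA and TUBB3 and above them for PRPH, while the STMN2 probe sets lie between 2.18, the lowest value of the arrays, and 2.20.

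All 4 tested type IV filament subunits among the members fell and the type III subunit PRPH rose. This split concerns the members alone. Filament classes were not compared as sets, and it is not read as a trait of type III or type IV genes. PRPH was 11.40, 11.45 and 11.43 on the teriflunomide arrays, against 9.87, 9.57 and 9.83 on the DMSO arrays. The groups lay far apart, and the teriflunomide arrays were within 0.05 of each other. The log2 fold change was 1.67 (limma SE 0.09, adjusted p = 7.63e-05), a 3.19-fold rise. Of all genes tested, 2.71% changed by more in either direction.

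NEFL, the core subunit without which NEFM and NEFH do not form normal filaments, fell most when each gene was read from its brightest probe set. Its brightest probe set was 10.02, 10.18 and 10.06 on the teriflunomide arrays, against 11.31, 11.56 and 11.35 on the DMSO arrays. No array of either group reached the range of the other. The log2 fold change was -1.32 (limma SE 0.08, adjusted p = 0.00013), to 0.402 of the DMSO level, and 5.13% of the genes tested changed by more. NEFL and PRPH were the 2 members that changed at least 2-fold; of all genes, 4.53% were lower and 5.24% higher by that much.

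The other 2 NEFL probe sets were called lower too. The first, 221801_x_at, was 7.37, 7.53 and 7.41 with teriflunomide, against 8.58, 9.04 and 8.68 with DMSO, a log2 fold change of -1.33 (SE 0.13). The second, 221805_at, was 9.70, 9.79 and 9.88 with teriflunomide, against 10.29, 10.53 and 10.40 with DMSO, a log2 fold change of -0.62 (SE 0.08). The suffix of 221801_x_at marks probes that can bind other sequences. The size of the NEFL decrease differed between probe sets. The brightest probe set fell by 0.70 more than 221805_at, a difference that separated the groups on every array (exact permutation p = 0.1, the smallest possible, 0.18 adjusted over 9 pairs of probe sets). It differed from 221801_x_at by 0.02 (exact permutation p = 1).

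NEFM, whose long tail projects from the filament, is the chromosomal neighbour of NEFL, with 0 protein-coding genes between them on chromosome 8. It was 9.94, 9.96 and 9.83 on the teriflunomide arrays, against 10.38, 10.49 and 10.53 on the DMSO arrays. The groups did not overlap, and the log2 fold change was -0.55 (limma SE 0.06, adjusted p = 0.000622). A further NEFM probe set, 223902_at, lay at the lowest value on all 6 arrays and gave no measurable signal. NEFM thus has 1 measurable probe set here.

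NEFH, the subunit with the longest and most heavily phosphorylated tail, was 8.00, 8.10 and 8.14 on the teriflunomide arrays, against 8.74, 8.93 and 8.77 on the DMSO arrays. Its log2 fold change was -0.74 (limma SE 0.07, adjusted p = 0.000395). Its other probe set was 7.42, 7.47 and 7.32 with teriflunomide, against 8.13, 7.99 and 8.12 with DMSO, a log2 fold change of -0.68. The changes of the 2 probe sets differed by -0.06, and the arrays of the groups overlapped in that difference (exact permutation p = 0.6).

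INA, a subunit expressed early in developing neurons, was 9.88, 9.91 and 10.10 on the teriflunomide arrays, against 10.95, 10.81 and 10.79 on the DMSO arrays. The log2 fold change was -0.89 (limma SE 0.08, adjusted p = 0.000361), to 0.541 of the DMSO level. The call rests on the single INA probe set.

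The 5 filament genes were also compared with each other through the difference of their log2 values within each array, which gives 10 pairs. Groups did not overlap for 8 of the 10 pairs, each with an exact permutation p of 0.1 (0.125 adjusted over the 10), the smallest that the design allows. Every pair with PRPH was among them. The share over pairs of other genes was not computed, and 67.0% of single genes tested had arrays that did not overlap. The count is therefore not read as a trait of filament genes. Relative to PRPH, NEFL lost 2.99 log2 units, INA 2.56, NEFH 2.41 and NEFM 2.23. All pairs use the brightest probe set of each gene. On it, NEFL fell by 0.76 more than NEFM, by 0.58 more than NEFH and by 0.43 more than INA. That order depends on the NEFL probe set. NEFL 221805_at changed by -0.62, less than INA at -0.89 and NEFH at -0.74. INA fell by 0.33 more than NEFM. The pairs whose arrays overlapped were INA with NEFH, with a difference between their changes of -0.15 (exact permutation p = 0.3), and NEFM with NEFH, at 0.18 (exact permutation p = 0.2). These values concern the changes; levels of different probe sets are not comparable on these arrays.

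**Figure D2:**
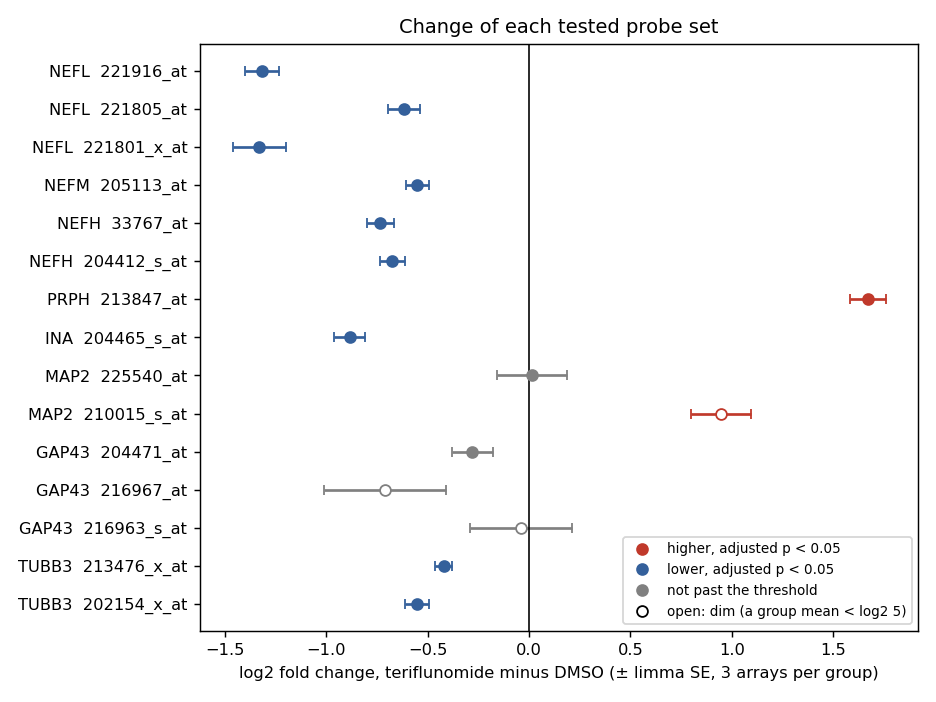
Log2 fold change of the 15 tested probe sets, teriflunomide minus DMSO (horizontal axis), with limma's standard error as the bar; red is called higher, blue called lower, grey not called, and open circles are probe sets with a group mean under log2 5. The 3 NEFL probe sets stand at -1.32, -0.62 and -1.33 and PRPH at 1.67, and the MAP2 probe set called higher is a dim one.

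Of the 4 microtubule genes, TUBB3 fell, MAP2 did not pass on its brightest probe set, and STMN2 and DCX were too dim to test. TUBB3 was 12.24, 12.29 and 12.19 on the teriflunomide arrays, against 12.67, 12.62 and 12.70 on the DMSO arrays. Its arrays did not overlap, with a log2 fold change of -0.42 (limma SE 0.04, adjusted p = 0.000486), and the other probe set gave -0.56 (SE 0.06). Both carry the suffix that marks probes shared with other sequences, so signal from other beta-tubulin transcripts cannot be told apart from TUBB3.

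MAP2, a protein of dendrites, was 8.34, 8.61 and 8.29 on the teriflunomide arrays, against 8.15, 8.72 and 8.33 on the DMSO arrays, on its bright probe set. The groups overlapped, and the log2 fold change was 0.01 (limma SE 0.17, adjusted p = 0.965). A dim MAP2 probe set, 210015_s_at, was 3.86, 3.28 and 3.64 with teriflunomide, against 2.63, 2.65 and 2.66 with DMSO, a log2 fold change of 0.95 (limma SE 0.15, adjusted p = 0.00438 over the 27290 probe sets tested). All its values lay under log2 5, and raising values under log2 5 to 5 left a change of 0. With the mean of its tested probe sets, MAP2 was called higher, at 0.48.

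STMN2, which binds tubulin dimers and promotes axon growth, was at the lowest value, 2.18, on all 6 arrays with 203000_at and on 4 of the 6 with 203001_s_at, whose highest array was 2.20. DCX, which stabilises microtubules in migrating neurons, ranged from 2.32 to 3.29 on the teriflunomide arrays and from 2.28 to 2.63 on the DMSO arrays over its 2 probe sets. Neither gene passed the filter. STMN2 lay at or next to the lowest value in both groups. DCX was dim, though single teriflunomide arrays, at 2.99 and 3.29, lay above the array medians of 2.63 to 2.66. The values say nothing of transcripts that these probes miss.

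GAP43, the growth cone gene, was 11.02, 11.27 and 11.13 on the teriflunomide arrays, against 11.28, 11.58 and 11.39 on the DMSO arrays. The arrays were just apart, and the log2 fold change of -0.28 (SE 0.10) did not pass (limma adjusted p = 0.056). Over 15 alternative settings its adjusted p ranged from 0.00835 to 0.152, and it passed under 6 of them, among these leaving out DMSO replicate 1 or teriflunomide replicate 2 (adjusted p = 0.0422 and 0.0497). Of its other 2 probe sets, 216967_at gave -0.71 (SE 0.30) and 216963_s_at -0.04 (SE 0.25), both low in signal and overlapping between the groups.

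Of the 8 tested member genes, 7 had arrays that did not overlap between the groups, against 67.0% of all genes tested. At the level of probe sets, 2 of the 15 tested were called higher and 9 lower, where 23.7% of all 27290 probe sets tested were called higher, 25.2% lower and 48.8% either way. Of the 15, 2 were lower and 1 higher by at least 2-fold, where the shares over all probe sets were 5.34% and 5.01%, and 12 had arrays that did not overlap, against 60.0%. These shares are the background for the members' counts. The 6 called genes passed under each of the 15 alternative settings run, with a largest adjusted p of 0.00747.

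The rest of the intermediate filament family was read from a list of 13 other genes, of which 11 were tested. Of these, 3 rose, 3 fell and 5 did not pass, and the list's median was -0.11 in log2 fold change. The background for this and each later list count was 29.7% called higher and 28.9% called lower over all genes tested. VIM (vimentin), a type III protein like peripherin, was 13.49, 13.50 and 13.40 on the teriflunomide arrays, against 12.61, 12.44 and 12.54 on the DMSO arrays. It rose by 0.93 (limma SE 0.06, adjusted p = 0.000122). The fibroblast genes COL1A1 and LUM rose on the same arrays, by 0.94 and 0.61. Of the other fibroblast markers, PDGFRA went the other way, at -0.26, and DCN was at 2.18 on every array. LMNA, which encodes lamins A and C, rose by 0.60 and SYNM (synemin) by 0.59. The B-type lamin genes LMNB1 and LMNB2 fell by 0.48 and 0.28, and NES (nestin), of neural progenitors, fell by 0.27. The other type III genes DES and GFAP were dim, with DES at 2.94 with teriflunomide and 2.89 with DMSO, and GFAP at 2.18 with teriflunomide and 2.19 with DMSO. SYNM, NES, DES and GFAP are named after a look at their values.

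**Figure D3:**
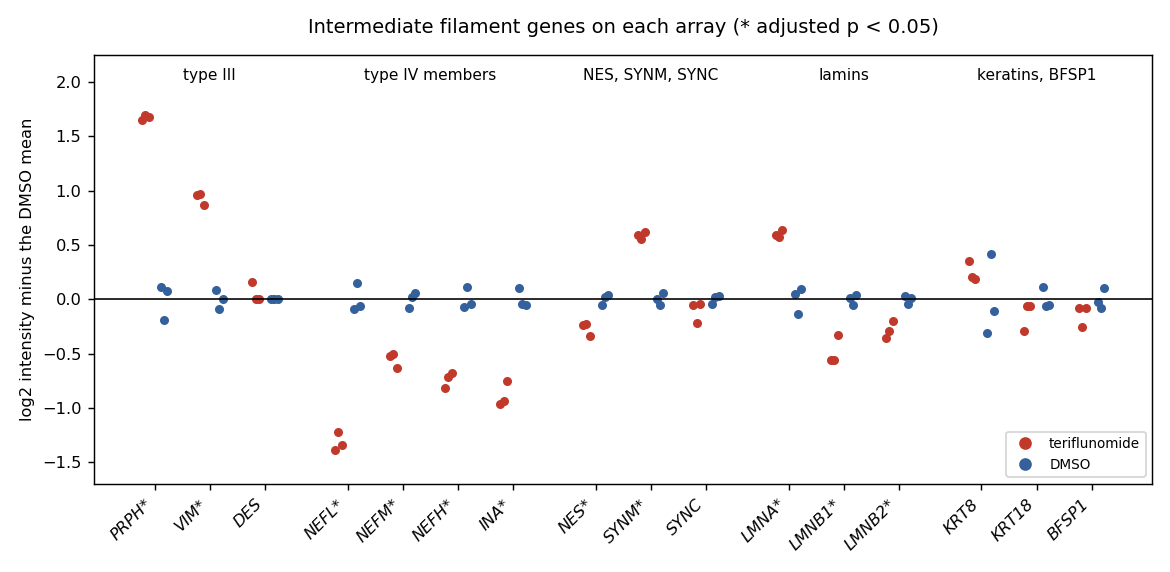
Log2 intensity minus the gene's DMSO mean (vertical axis) on each array for 16 tested intermediate filament genes, teriflunomide left of DMSO within each gene; an asterisk marks an adjusted p under 0.05. The teriflunomide arrays of PRPH, VIM, SYNM and LMNA lie above their DMSO arrays, and those of NEFL, NEFM, NEFH, INA, NES, LMNB1 and LMNB2 below.

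Genes that phosphorylate, link or turn over neurofilaments moved in both directions. Of 17 tested, 7 rose and 6 fell, and the list's median was 0.17 in log2 fold change. DNAJB6, a chaperone, fell by 2.87, and CDK5, a kinase that phosphorylates neurofilament tails, fell by 1.43. CDK5R1 fell by 0.66; it encodes the CDK5 activator p35, and its choice came after its value was seen. FBXO2, a ubiquitin ligase subunit, rose by 1.14, a call lost with values under log2 5 raised to 5. ARHGEF28, an exchange factor known to bind NEFL mRNA, rose by 0.62, with 2 other probe sets called higher and 1 lower. GSK3B, another neurofilament kinase chosen after its value was seen, stood at -0.96 on its brightest probe set and at -3.32, 0.60 and 1.72 on others, so its direction is not settled.

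Among 13 tested tubulin genes besides TUBB3, 3 rose and 3 fell, 7 did not pass, and the list's median was 0.02. TUBE1 (epsilon-tubulin), a centriolar tubulin, rose by 1.92. TUBB2B, a beta-tubulin of developing neurons, was 10.51, 10.65 and 10.54 on the teriflunomide arrays, against 8.88, 9.31 and 8.91 on the DMSO arrays, a rise of 1.53 (limma SE 0.13, adjusted p = 0.000306). The neuronal isotypes TUBB3 and TUBB2B thus moved in opposite directions on these probe sets, as TUBB4B and TUBB2A fell by 0.52 and 0.26. Near-identical tubulin sequences make the identity of such probe sets uncertain.

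Of the tubulin folding and modification genes, 8 of 21 rose and 6 fell (median -0.0045), and 4 rose where probe sets with a plain suffix were preferred. TTLL7, a tubulin polyglutamylase, rose by 1.08 and HDAC6, a tubulin deacetylase, by 0.90. Another TTLL7 probe set of similar brightness changed by 0.17 and did not pass (limma adjusted p = 0.194). TBCD, a tubulin folding cofactor, fell by 0.83 and TTLL5 fell by 0.81. Both tested stathmin genes fell, STMN1 by 0.35 and STMN3 by 0.24, but the call of STMN3 was lost with the mean of its probe sets. STMN4 was at 2.18 on all 6 arrays.

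Of 15 tested genes of other microtubule-associated proteins, 8 rose and 2 fell, against 29.7% higher and 28.9% lower over all genes. The list's median was 0.23, the opposite sign to the members' median. MTUS1 rose by 1.06 and MAP1A, a protein of mature neurites, by 0.92. MAP1B, abundant in growing axons, rose by 0.45 and MAPT (tau) by 0.52; both were chosen after their values were seen. MAP6D1 fell by 1.66, and DCLK1, a kinase with doublecortin domains, by 1.11. Of 19 genes of microtubule ends, severing and nuclear migration, 7 rose and 7 fell (median 0.04), with CLIP1 and CLIP3 at 1.06 and 1.04, and NAV1 and SPAST (the severing enzyme spastin) at -1.32 and -0.62. Without DMSO replicate 2 or without teriflunomide replicate 2, 4 of these genes rose, as with the 75th percentile filter or the replicate block, and 4 fell with the mean of probe sets.

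Collapsin response mediator proteins bind tubulin and steer growth cones. Of their 5 genes, 4 fell and 0 rose, against 28.9% lower and 29.7% higher over all genes. The median was -0.66 in log2 fold change. DPYSL2 was 12.44, 12.62 and 12.56 on the teriflunomide arrays, against 13.17, 13.38 and 13.17 on the DMSO arrays, a fall of 0.70. DPYSL5 fell by 0.73, but a dimmer DPYSL5 probe set changed by -0.02 and did not pass. CRMP1 did not pass, at 0.14 (limma adjusted p = 0.064). Without teriflunomide replicate 1, 1 gene of the list was called higher, as with the 75th percentile filter or the replicate block.

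**Figure D4:**
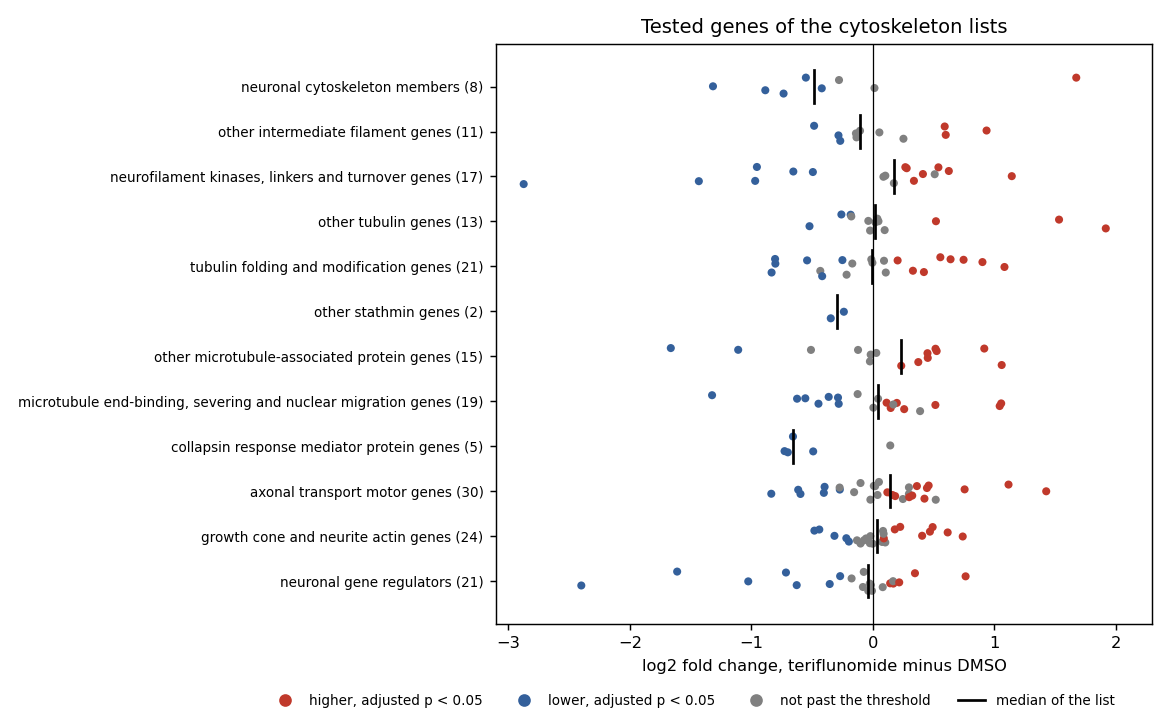
Log2 fold change, teriflunomide minus DMSO (horizontal axis), of each tested gene in the members' list and 11 other cytoskeleton and neuronal lists, with the number tested in brackets; points are genes, coloured by call, spread vertically for legibility, and the black line is the list's median. The members' median is -0.49, that of the neuronal regulators -0.04, that of the axonal motors 0.14 and that of the collapsin response mediator protein genes -0.66.

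The genes with the profile nearest to that of PRPH over the 6 arrays, by Euclidean distance after centring each gene, were MXD1 (distance 0.14), ZNF641 (0.19) and SLC5A3 (0.21). Their log2 fold changes were 1.64, 1.70 and 1.81. Those nearest to NEFL were ACTR3B (0.07), SLC39A1 (0.09) and TMEM117 (0.10), with log2 fold changes of -1.30, -1.28 and -1.33. The arrays fall into 2 groups, so no correlation is given. Over such arrays this distance picks genes with a similar change, so the similar fold changes follow from the selection and are no result.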

How the data were processed

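RNA of IMR32 cells was measured on 6 arrays, 3 per group. The deposited values are log2 intensities per probe set that the authors made with GCRMA, per the submitters' processing notes, a method that models background from probe sequence, brings arrays to a common distribution and summarises probes. No version or setting of GCRMA is given here. Arrays give no read depth, and their number limits the precision.

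Probe sets were named from the platform annotation (41097 with 1 symbol, 1801 with several, 11777 with none). Several symbols or none, and 62 controls, stayed out of the gene tests. A probe set was tested when 3 or more of its 6 values were no lower than the array's median, and the one with the highest mean stood for its gene, giving 11998 genes. limma (version 3.58.1, R 4.3.3; lmFit, eBayes, no covariates) compared teriflunomide with DMSO. The p-values are two-sided with Benjamini-Hochberg adjustment over all genes, or over 27290 probe sets where probe sets are given singly. SE is limma's. Single values were compared by exact permutation tests (SciPy 1.17.1). The fit was tested on simulated data. No set test was run.

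Named are all members, per list the 2 largest rises and 2 largest falls past the threshold, and the 3 genes nearest to the members that rose and fell most; the cell markers MYCN, TH, DBH, ALDH1L1 and DCN, as well as STMN4 and CRMP1, and those marked so in the text, were chosen after their values were seen. The members and lists were chosen with earlier results of these data known. Of 236 listed genes, 222 were analysed here.

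Alternatives were no filter, a 75th percentile filter, median centring, quantile normalization, values under log2 5 raised to 5, trended and robust eBayes, a replicate block, each array left out, the mean of probe sets and a plain suffix preferred.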

Additional observations from a re-analysis of the deposited data

How the results depend on the processing

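The counts over all genes stayed within 1.5 times of the main counts under each of the 15 alternatives, and so did the 63 higher and 56 lower genes of the lists and the 5 lower member genes (5 to 6). The member genes called higher became 2 with the mean of probe sets, through MAP2, and the member probe sets called higher became 1 with the 75th percentile filter, where the dim MAP2 probe set was not tested, and 1 with values under log2 5 raised to 5. With each array left out in turn, MAP2 ranged from -0.11 to 0.17 and the dim GAP43 probe set 216963_s_at from -0.24 to 0.22, neither passing. Single lists moved more: beside the counts given with the lists, microtubule-associated protein genes that fell became 1 with the 75th percentile filter, stathmins that fell 1 with the mean of probe sets, glial markers that rose 1 without teriflunomide replicate 2, and markers of other cells that rose 1 with a plain suffix preferred. BICD1 reversed to -1.26 and PDGFRA to 0.0296 with the mean of probe sets, and ARHGEF28 reversed to -0.345 and SIN3A to 0.36 with a plain suffix preferred, alternatives built on other probe sets. LUM (0.02) and MTUS1 (0.54) did not pass with a plain suffix preferred. The PDGFRA call was also lost with no filter, with the replicate block and without any of 4 of the arrays. The median of all genes moved by at most 0.0124 under the scalings tried. GAP43 passed, besides the 2 arrays named above, with the 75th percentile filter (adjusted p = 0.0193), quantile normalization (0.0386), trended and robust eBayes (0.0274) and the replicate block (0.00835). The samples share only a number: deviations of same-numbered arrays from their group means correlated at 0.04, 0.10 and -0.09, and not every array correlated best with its own number. With the replicate block, 3359 genes were higher and 3282 lower, and 1 member gene was higher and 6 lower. Dim probe sets, under log2 5, limit what can be said of STMN2, DCX and the second MAP2 probe set.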

Other observations

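Of 30 tested axonal transport motor genes, 12 rose and 6 fell, and the list's median was 0.14. KIF13B rose by 1.12, while DYNLL1, a dynein light chain, and KIF1C fell by 0.62 and 0.84, although another KIF1C probe set was called higher, at 0.23 (limma adjusted p = 0.0458). BICD1, a dynein adaptor, rose by 1.43 on its brightest probe set, but its 5 other tested probe sets were called lower, between -2.57 and -1.05. Of 24 growth cone and neurite actin genes, 8 rose and 5 fell (median 0.04). BASP1, a membrane protein of growth cones with chemical properties close to those of GAP43, rose by 0.74 and L1CAM, an axonal adhesion molecule, by 0.61. FSCN1 (fascin) fell by 0.48 and ABLIM1 by 0.44.

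Of 21 tested regulators of neuronal genes, 5 rose and 7 fell, and the list's median was -0.04. INSM1, a zinc finger factor of neuroendocrine cells, fell by 2.40, and SIN3A, a corepressor scaffold, fell by 1.61, although another SIN3A probe set rose by 0.36. PHOX2A and GATA3 rose by 0.76 and 0.35. REST, the repressor of many neuronal genes, did not pass, at -0.02 (limma SE 0.05, adjusted p = 0.796), and TARDBP, an RNA-binding protein needed for full-length STMN2 mRNA, fell by 0.27. REST and TARDBP were chosen after their values were seen. Of the neuroblastoma line markers, DDC and CHGA fell by 1.82 and 1.46. Of the markers of other cells, ACTA2 fell by 0.49. PDGFRA, a fibroblast marker, stood at -0.26. Its call was lost when DMSO replicate 1 or 3 or teriflunomide replicate 1 or 3 was left out (limma adjusted p between 0.0502 and 0.0573).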
